A study of Drosophila melanogaster with 4 samples.

Results

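The regions described here are the histone H3 clusters of euchromatic 3L, the left arm of the third chromosome of *Drosophila melanogaster* without the 2 Mb nearest the centromere. A cluster is a region that the authors listed as significantly enriched in H3 chromatin immunoprecipitation sequencing (ChIP-seq) over input. Members were all regions of 3L with a value above 0 and a midpoint between base 1 and base 22543557 of FlyBase r5, a stretch of 22.5 Mb that starts at the telomeric, or distal, end. The authors' list for both replicates together, below named the combined list, holds 4114 of its 23076 clusters in this stretch. The list of ChIP replicate 1 holds 3294 of its 18082 clusters in the stretch, and that of replicate 2 holds 3407 of 18625.

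Nuclei came from 3rd instar larvae of wild-type flies of the Oregon-R strain (listed as Oregon-R-modENCODE), with no treatment named. The series has 2 H3 ChIP libraries (H3 antibody3) and 2 inputs, each input paired by the labels with 1 ChIP library. The labels name no tissue, so each list averages over the cell types of a larva, and they do not say whether the replicates were separate collections of larvae; differences between them may thus be technical. The inputs enter only through the ratio of ChIP to input, no list of their own was used here, and the read depth of the libraries is unknown.

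Histone H3 is a core histone, and together with H2A, H2B and H4 it forms the protein spool around which nucleosomal DNA is wrapped. An antibody against H3 itself recovers nucleosomes largely irrespective of their modifications, and such profiles commonly serve as a measure of nucleosome density and as a reference for modified histones. Euchromatin is the gene-rich part of a chromosome arm, where nucleosomes are unevenly spaced and are typically depleted at active promoters and enhancers. Gene positions on FlyBase r5 were not used here, so the regions below are named by coordinates alone.

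H3 clusters covered 38.2% of the stretch in replicate 1 and 41.2% in replicate 2, a mean of 39.7 ± 2.13% (SD, n = 2). That is 8.61 Mb in replicate 1 and 9.29 Mb in replicate 2. The combined list covered more than either replicate, 54.8% or 12.3 Mb. Clusters occurred at 146 per Mb in replicate 1, 151 per Mb in replicate 2 and 182 per Mb in the combined list. The combined list thus had more clusters. Its median width was also larger than in either replicate, but its lower quartile was smaller.

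Most clusters were a few kilobases wide or less. The median width was 2034 bp in replicate 1, with quartiles at 1596 and 3085.5 bp, and 2060 bp in replicate 2, with quartiles at 1579 and 3166.5 bp. The median cluster of the combined list measured 2161 bp, between quartiles of 1561.5 and 3550 bp. The narrowest cluster had 1301 bp in both replicate lists and 1001 bp in the combined list. Clusters of at least 10 kb were rare: 17 in replicate 1, 35 in replicate 2 and 91 in the combined list. They held 2.52%, 4.64% and 10.2% of the covered bases of these lists. Clusters from 3000 to 5000 bp held the largest share of covered bases of the 6 width classes in each list, 27.0% in replicate 1, 26.0% in replicate 2 and 24.7% in the combined list.

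Neighbouring clusters lay close together, with a tail of long empty stretches. From the end of a cluster to the start of the next, replicate 1 had a median spacing of 2093 bp, replicate 2 of 1929.5 bp and the combined list of 1297 bp. The mean spacing was about 2 times the median in each list, 4211 bp, 3870.2 bp and 2466 bp. In replicate 1, 18.5% of the spacings were under 500 bp, in replicate 2 19.5% and in the combined list 26.4%. Spacings of at least 10 kb numbered 375 in replicate 1 and held 48.2% of the bases between clusters. Replicate 2 had 328 of them with 44.5% of these bases, and the combined list 165 with 24.5%. In the replicate lists, relatively few spacings of at least 10 kb thus held somewhat fewer bases than all shorter spacings together. Most bases of the shorter spacings were not in the shortest ones. Spacings from 2000 to below 5000 bp held 20.6% of the bases between clusters in replicate 1 and 22.3% in replicate 2. Those from 5000 to below 10000 bp held 21.7% and 22.7%, and those under 500 bp held 0.95% and 1.05%.

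**Figure D1:**
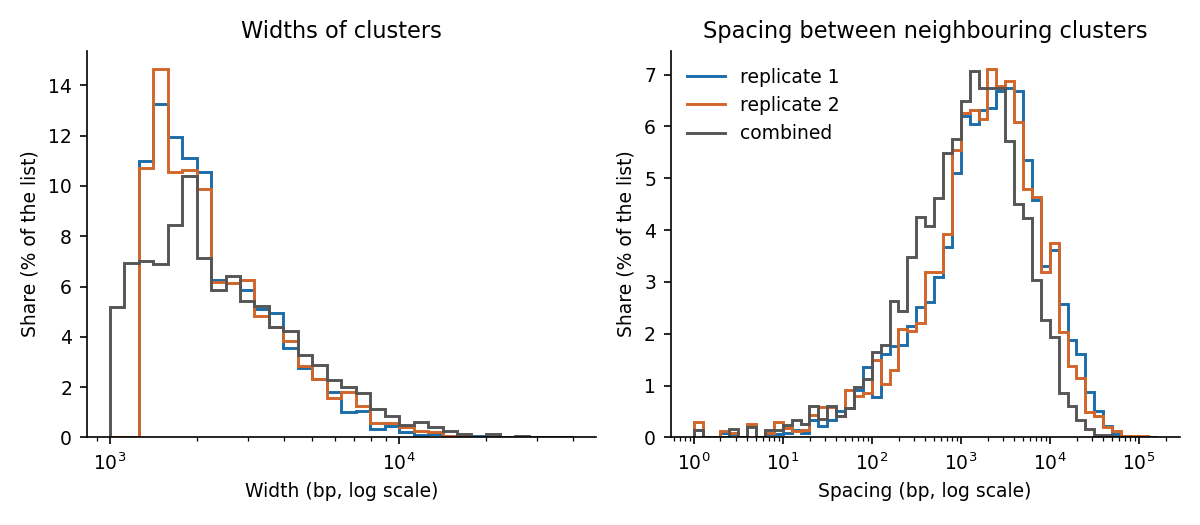
Share of clusters by width (left, bp, log scale) and of spacings between neighbouring clusters by length (right, bp, log scale, clusters that touch or overlap drawn at 1 bp) in replicate 1, replicate 2 and the combined list. Replicate widths begin at 1301 bp and combined widths at 1001 bp, and the combined list has the shorter spacings, with a median of 1297 bp against 2093 and 1929.5 bp.

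Enrichment within clusters was modest. The value of a region is taken as the log2 ratio of ChIP to input. Its median was 0.52 in replicate 1 and 0.51 in replicate 2, a mean of 0.52 ± 0.0093 (SD, n = 2) or 1.43-fold. The combined list had a median of 0.37, or 1.29-fold. Values ran from 0.081 to 1.20 in replicate 1, from 0.00075 to 1.57 in replicate 2 and from 0.00070 to 2.60 in the combined list. Between the quartiles the values spanned 0.21 log2 units in replicate 1 and 0.24 in replicate 2, so the lists differed more in spread than in their centre.

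Wide clusters carried higher values than narrow ones. In replicate 1 the median log2 value was 0.40 below 1500 bp, 0.57 from 2000 to 3000 bp, 0.70 from 5000 to 10000 bp and 0.75 in clusters of at least 10 kb. Replicate 2 had 0.36, 0.57, 0.73 and 0.82 in the same classes. Among its narrow clusters the combined list went the other way, with 0.29 below 1500 bp and 0.26 from 1500 to 2000 bp. Across clusters of the stretch, Spearman's rho of width and value was 0.678 in replicate 1 (n = 3294), 0.709 in replicate 2 (n = 3407) and 0.645 in the combined list (n = 4114); clusters of a list share their library and are not independent, so no p is given. The values of the widest clusters were not the highest of their lists. Among the 10 widest they reached 0.92 in replicate 1, 1.14 in replicate 2 and 0.85 in the combined list.

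The lowest values changed most around 2000 bp, while the medians of the width classes given above kept rising in wider clusters. In replicate 1, 624 of the 1232 clusters with a width above 1300 and up to 1800 bp had a log2 value below 0.4, against 0 of 464 clusters above 2000 and up to 2400 bp, the lowest of which had 0.40. In replicate 2 these counts were 753 of 1257 and 0 of 455, again with a lowest value of 0.40. Above 2400 and up to 3000 bp, lower values appeared again, 18 of 400 clusters in replicate 1 and 24 of 403 in replicate 2 lying below 0.4. Over these width ranges the combined list showed the same shape at lower values. Below a value of 0.2 lay 406 of 865 clusters in the first range, 2 of 418 in the second and 23 of 496 in the third. Among narrower combined clusters the values fell with width. The median was 0.35 above 1000 and up to 1100 bp, but 0.18 above 1600 and up to 1700 bp. On the other 4 large arms, also without the 2 Mb nearest the centromere, the shape was alike, with 44.1%, 0.157% and 3.67% of clusters below 0.4 in replicate 1 and 55.2%, 0.161% and 5.00% in replicate 2. The width ranges and the limits on the value were chosen after the values had been seen.

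**Figure D2:**
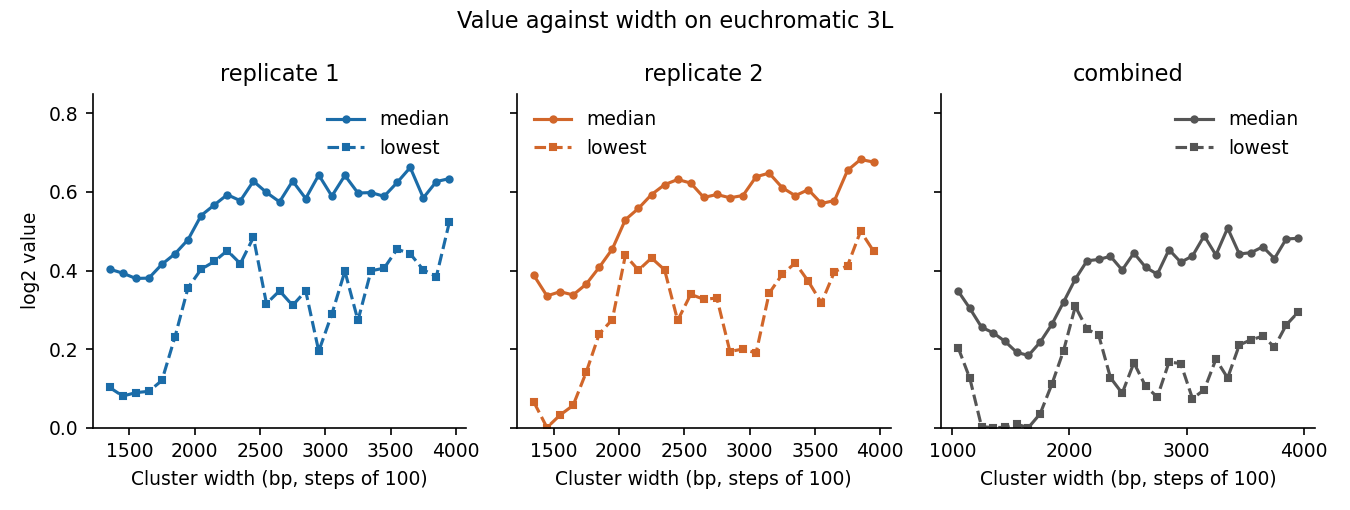
Median (solid, circles) and lowest (dashed, squares) log2 value of the clusters of euchromatic 3L in steps of 100 bp of width, for replicate 1, replicate 2 and the combined list. In all 3 panels the lowest value goes up steeply between 1700 and 2100 bp and is lower again at larger widths. The median levels off up to the 4000 bp drawn, and wider clusters, which had higher medians, are not shown. In the combined list the median first falls, from 0.35 above 1000 and up to 1100 bp to 0.18 above 1600 and up to 1700 bp.

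Most clusters of a replicate overlapped clusters of the other. Replicate 2 clusters covered 41.2% of the stretch and replicate 1 clusters 38.2%, so some overlap would also occur between unrelated lists. Sharing was not compared with that on the other arms, so it is not shown to be a trait of 3L. Of replicate 1 clusters, 2908 of 3294 (88.3%, 95% Wilson interval 87.1 to 89.3%) had at least 50% of their length in clusters of replicate 2. In the other direction it was 2779 of 3407 (81.6%, 80.2 to 82.8%). Replicate 1 had 310 clusters without a base in replicate 2, and these were narrow and weak: their median width was 1469.5 bp and their median log2 value 0.42. Replicate 2 had 532 clusters without a base in replicate 1, with medians of 1470.0 bp and 0.38. The widest cluster of either kind had 3162 bp in replicate 1 and 4376 bp in replicate 2. Every cluster wider than these therefore overlapped a cluster of the other replicate.

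Counted in bases, both replicates covered 7.56 Mb, or 33.5% of the stretch, and at least 1 of them covered 10.3 Mb, or 45.8%; the ratio of the former to the latter was 0.732. Replicate 1 alone covered 1.05 Mb and replicate 2 alone 1.73 Mb. In replicate 1, 54.1% of the bases it alone covered lay in clusters that overlap replicate 2, as flanks or filled spacings, and 45.9% in separate clusters. The split was 51.4% and 48.6% in replicate 2.

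Where clusters corresponded, their edges were close. There were 2330 pairs in which 1 cluster of each replicate overlapped only the other, 70.7% of the replicate 1 clusters. Matching edges lay a median of 96 bp apart, 51.5% of them within 100 bp and 5.82% more than 1000 bp apart. Replicate 2 had the wider cluster in 60.2% of the pairs, with a median of 2167 bp against 2057.5 bp. A replicate 1 cluster overlapped 2 or more clusters of replicate 2 in 185 cases, and 265 clusters of replicate 2 overlapped 2 or more of replicate 1.

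Values of these pairs also went together, with Pearson's r of 0.799 and Spearman's rho of 0.779 across the 2330 pairs, which come from the same pair of libraries. Subtracting the log2 value of replicate 1 from that of replicate 2 gave a median of 0.0061 and an SD over pairs of 0.11. The difference depended on the strength of the cluster. In the 583 pairs with the lowest mean value the medians were 0.35 in replicate 1 and 0.33 in replicate 2, with a median difference of -0.032. In the 583 pairs with the highest mean value they were 0.71 and 0.75, with a median difference of 0.057. Replicate 2 thus spread the values of the same clusters more widely at both ends.

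Nearly all replicate clusters recurred in the combined list, which covered at least 50% of 3276 of the 3294 clusters of replicate 1 and of 3383 of the 3407 of replicate 2. It also held 2.13 Mb outside both replicates, 17.2% of its covered bases. Of its 4114 clusters, 2340 had 50% or more of their bases in each replicate (56.9%, 95% Wilson interval 55.4 to 58.4%), 317 in replicate 1 alone, 532 in replicate 2 alone and 925 in neither. The list is taken to rest on the same replicates, so this coverage is not independent evidence for its clusters. The supported ones were wide and strong, with medians of 2936 bp and 0.45 on the log2 scale, against 1249 bp and 0.29 for those covered by neither.

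Support by the replicates followed width closely. Both replicates covered 9 of the 936 combined clusters below 1500 bp (0.962%, 0.507 to 1.82%), 457 of 920 from 1500 to 2000 bp (49.7%) and 726 of 914 from 2000 to 3000 bp (79.4%). From 5000 to 10000 bp it was 419 of 454 (92.3%), and of the 91 clusters of at least 10 kb it was 91. Of the 594 combined clusters narrower than 1301 bp, the minimum width of the replicate lists, 551 had no base in either replicate. Support was also higher at higher values, 142 of 568 clusters with a log2 value up to 0.2, 72.2% above 0.4 and up to 0.5, and 97.9% above 0.6 and up to 0.8. Above 1 it was 3 of 9, and 5 of these 9 had no base in either replicate.

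On largely overlapping clusters the combined values were mostly lower than those of the replicates. Among 1163 combined clusters with exactly 1 cluster of each replicate over at least 80% of their length, the median value was 0.47 in the combined list, 0.53 in replicate 1 and 0.54 in replicate 2. The combined value lay below both replicates in 834 of them (71.7%), between the replicates in 322 and above both in 7. A combined value is therefore not the mean of the listed replicate values, and its making was not described in the sources used here. The intervals compared were not identical, as part of a combined cluster could lie outside the replicate clusters. Whether this lowered its value was not tested.

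The widest combined cluster ran from 1755974 to 1793906, 37.9 kb with a log2 value of 0.85. Replicate 1 covered 97.3% of it with 6 clusters, up to 19383 bp wide, and replicate 2 covered 99.3% with 5 clusters, up to 16272 bp wide. The spacings inside it were short: the longest had 242 bp in replicate 1, and in replicate 2 it had 81 bp. Replicate clusters within it differed in strength, from 0.35 to 0.91 in replicate 1 and from 0.28 to 1.14 in replicate 2.

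The next widest were the regions from 1689906 to 1715330 (25.4 kb, 0.73) and from 4194324 to 4219544 (25.2 kb, 0.52). Replicates 1 and 2 covered 96.8% and 97.6% of the former, but 84.6% and 78.1% of the latter, where the longest inner spacing was 1591 bp in replicate 1 and 3536 bp in replicate 2. Of similar width were the regions from 10892528 to 10916774 (24.2 kb, 0.57) and from 2222484 to 2244172 (21.7 kb, 0.78). The remaining 5 of the 10 widest began at 22295560, 5127176, 1610360, 2600912 and 1227032 and measured 18.9 to 21.0 kb. Both replicates covered at least 78.1% of each of the 10, always in 2 to 6 separate clusters, and 6 of the 10 began within the distal 3 Mb.

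**Figure D3:**
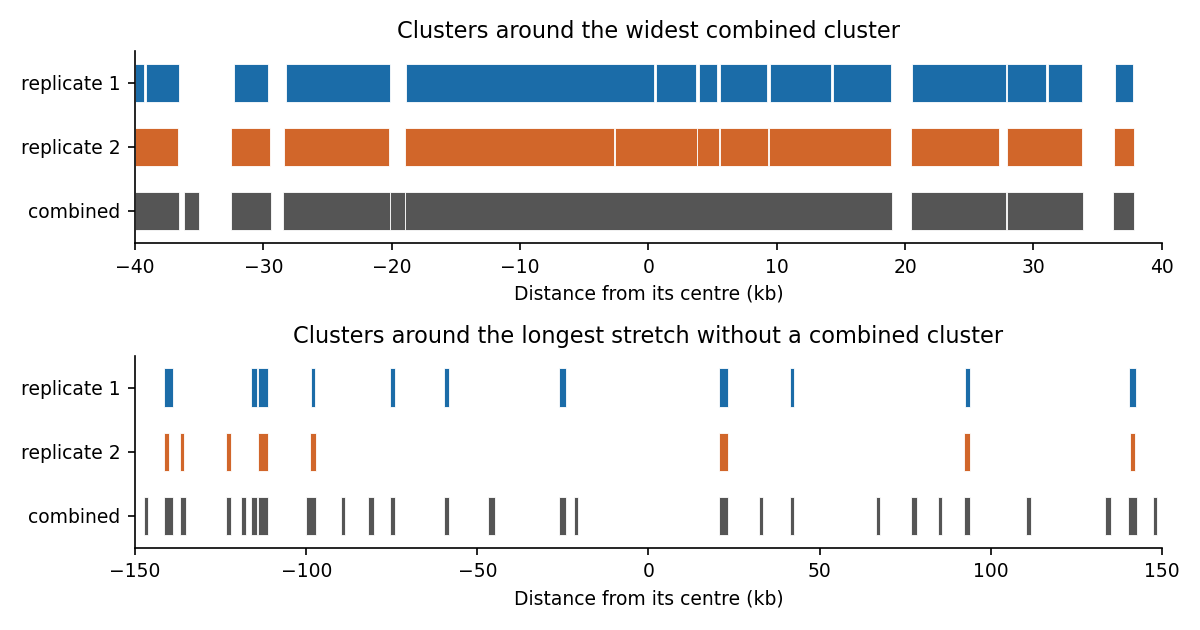
Clusters as bars in replicate 1, replicate 2 and the combined list around the widest combined cluster (above, distance from its centre in kb) and around the longest stretch without a combined cluster (below, distance from its centre in kb). In the upper panel the replicates fill the 37.9 kb with 6 and 5 closely spaced clusters, and in the lower panel the 41.0 kb at the centre holds none in any list.

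Broad clusters were most numerous in the distal 5 Mb, with 41 of the 91 combined clusters of at least 10 kb. There were 22 from 5 to 10 Mb, 9 from 10 to 15 Mb and 8 from 15 to 20 Mb. The shorter segment from 20 to 22.5 Mb held 11. Values of the 91 clusters ran from 0.41 to 1.10 with a median of 0.65. In the replicates they were usually broken up, with a median of 3 clusters per region in replicate 1 and 2 in replicate 2, and only 14 and 20 of the 91 overlapped a single cluster of that replicate. Joining combined clusters less than 500 bp apart gave 3027 runs, 2254 of them of 1 cluster. The run with the most covered sequence went from 22295560 to 22348254, 52.7 kb with 5 clusters and log2 values from 0.30 to 0.63. Replicate 1 covered 84.4% and replicate 2 92.7% of it. The run around the widest cluster, from 1746492 to 1793906, measured 47.4 kb, and the third one, from 1177990 to 1213870, 35.9 kb.

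The highest values belonged to other places. In the combined list the top value of 2.60, a 6.08-fold ratio, was carried by a cluster of 1001 bp from 408742 to 409742. It was followed by clusters of 1001 bp at 7881122 (2.02), of 1017 bp at 9123710 (1.75), of 1007 bp at 19391944 (1.35) and of 1089 bp at 7879512 (1.19). None of these 5 had a base in a cluster of either replicate, and all were close to the minimum width of the list. The ratio between the folds of the clusters at 408742 and 7881122 was 3 to 2 and that between 408742 and 7879512 was 8 to 3, within a tolerance of 1e-08. Of the 10 pairs among these 5 clusters, 3 stood in a whole-number ratio (denominator up to 20), against 0 of 10 pairs among the other 5 clusters of the 10 highest. The third of these ratios, 16 to 9 between 7881122 and 7879512, follows from the other 2, so the 3 pairs are not independent. Read numbers were not used here, and whether few reads underlie these clusters was not tested.

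The other 5 of the 10 highest values were found in both replicates. A cluster from 5454306 to 5458074 had a combined value of 1.37. Inside it lay the highest value of each replicate list in the stretch, 1.20 in replicate 1 over 1846 bp (49.0% of the combined cluster) and 1.57 in replicate 2 over 2523 bp (66.9%). The clusters from 8465760 to 8475862 (10.1 kb, 1.10), from 5688348 to 5692906 (4.56 kb, 1.04), from 17441814 to 17447056 (5.24 kb, 1.00) and from 1592832 to 1600360 (7.53 kb, 0.99) were each a single cluster in both replicates. Replicate 1 gave them 1.02, 0.93, 1.04 and 0.83, and replicate 2 gave them 1.20, 1.25, 1.03 and 1.18. Of these 4, the replicates were closest at 17441814 and furthest apart at 1592832.

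In segments along the arm, coverage was higher in the distal 10 Mb and in the most proximal segment than from 10 to 20 Mb. The distal end itself was not well covered, with 30.6 ± 3.83% in the first 0.5 Mb (SD, n = 2). In the distal 5 Mb clusters covered 47.1 ± 2.81% and from 5 to 10 Mb 42.0 ± 2.59% (SD, n = 2 for each). From 10 to 15 Mb they covered 33.7 ± 1.67%, from 15 to 20 Mb 33.0 ± 1.56% and in the remaining stretch up to 22.5 Mb 45.6 ± 1.94% (SD, n = 2 for each). The 2 segments from 10 to 20 Mb lay below the other 3 in both replicates. Number and width of clusters did not follow the same course: the distal 5 Mb had 154.5 ± 3.54 clusters per Mb with a median width of 2238 ± 59.0 bp, and the most proximal segment 169 ± 0.556 per Mb with 2060.5 ± 29.0 bp (SD, n = 2 for each). The median value was 0.54 ± 0.0014 in the distal 5 Mb and 0.50 ± 0.0073 in the most proximal segment (SD, n = 2 for each). Similar covered shares of these 2 segments thus came from wider, stronger clusters in the distal 5 Mb and from more numerous ones in the most proximal segment.

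In 45 full windows of 500 kb, the mean covered share of the replicates ran from 9.99% to 64.5%, with a median of 41.3% and quartiles at 31.7 and 47.5%. The replicates tracked each other, with Pearson's r of 0.983 across these windows and a median SD between replicates of 2.13 percentage points. Replicate 1 exceeded replicate 2 in 5 windows, all of them among the 9 least covered ones, with a mean share of at most 29.2%. Neighbouring windows resembled each other only loosely, with r of 0.367 between a window and the next at 500 kb and 0.546 at 100 kb.

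**Figure D4:**
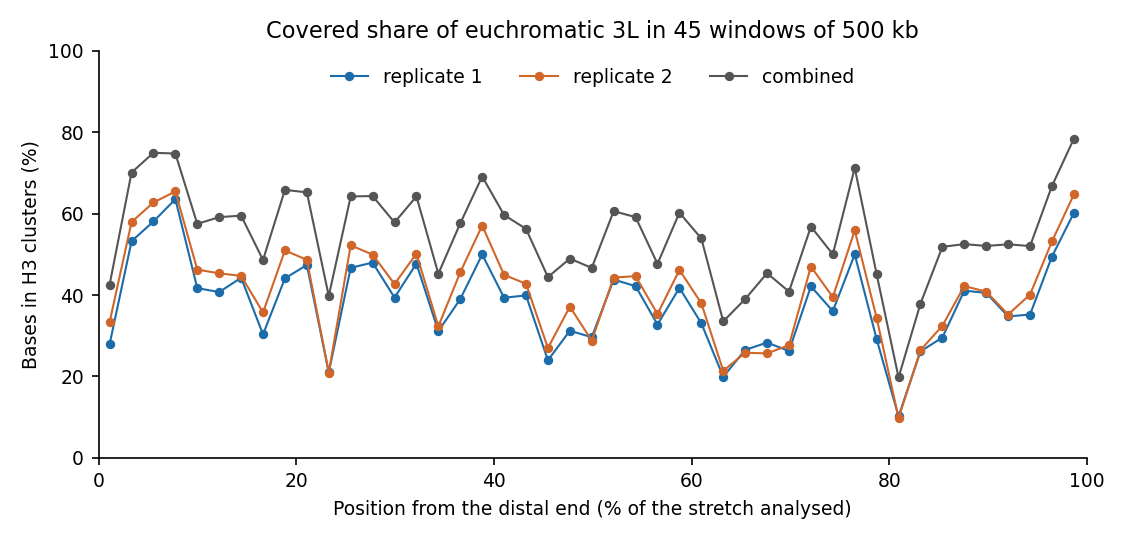
Share of bases in H3 clusters (%) in 45 windows of 500 kb along euchromatic 3L, by position from the distal end in percent of the stretch, for replicate 1, replicate 2 and the combined list. The replicates move together between 9.99% and 64.5% on average, and the combined list lies above both in every window shown.

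The best covered window lay from 1.5 to 2 Mb, with 63.5% in replicate 1, 65.4% in replicate 2 and 74.8% in the combined list. It was not rich in clusters, with 78 and 74 in the replicates, but these were wide, with mean widths of 4091 and 4427 bp. From 22 to 22.5 Mb, at the proximal end, the covered share was 60.2% in replicate 1 and 64.7% in replicate 2, with 104 and 96 clusters of 2893 and 3369.5 bp on average. The windows from 1 to 1.5 Mb, 0.5 to 1 Mb and 8.5 to 9 Mb followed, with 60.4 ± 3.30%, 55.6 ± 3.33% and 53.5 ± 5.03% (SD, n = 2 for each).

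The least covered window lay from 18 to 18.5 Mb, with 10.2% in replicate 1, 9.80% in replicate 2 and 19.8% in the combined list. Each replicate had 25 clusters there, and the widest had 4774 and 4996 bp. It differed from the rest of the arm more in the number of clusters than in their strength. The median log2 value was 0.46 in replicate 1 and 0.47 in replicate 2, against 0.52 and 0.51 over the whole stretch. Its clusters were also narrower, with mean widths of 2036 and 1960 bp against 2613 and 2726 bp over the whole stretch. In 100 kb windows the low stretch extended from 18 to 18.6 Mb, 6 neighbouring windows with a share under 20%. Over these, replicate 1 had 32 clusters and 10.5% coverage, replicate 2 had 29 clusters and 9.58%, and the combined list had 65 clusters and 19.9%. Both sides of it were better covered, with 29.1% in replicate 1 and 34.4% in replicate 2 from 17.5 to 18 Mb, and 26.2% and 26.4% from 18.5 to 19 Mb.

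Next came the windows from 14 to 14.5 Mb, 5 to 5.5 Mb, 10 to 10.5 Mb and 14.5 to 15 Mb, with 20.6 ± 1.04%, 21.0 ± 0.020%, 25.5 ± 2.13% and 26.2 ± 0.497% (SD, n = 2 for each). The window from 14 to 14.5 Mb had 39 clusters in each replicate, among them clusters of 11062 and 11223 bp. The window from 5 to 5.5 Mb held the combined cluster of 20.6 kb at 5127176 and the cluster at 5454306 with the highest values of both replicates. These windows thus held some wide or strong clusters despite poor coverage. Wide clusters were nevertheless fewer where coverage was low. The 9 least covered windows held 4 combined clusters of at least 10 kb, with 1 in replicate 1 and 2 in replicate 2. The 9 best covered held 48, with 9 and 18 in the replicates. Wide clusters add to the share by which windows were ranked, so part of this follows from the ranking.

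In windows of 100 kb the range was wider, from 2.25% to 84.5%, with a median of 39.7%. Under 20% lay 24 of the 225 windows, in 14 separate stretches, the longest of 6 and 4 windows (the latter from 14.1 to 14.5 Mb). At least 60% was reached in 23 windows in 17 stretches, none longer than 3 windows. The 3 best covered were from 1.7 to 1.8 Mb (83.6% in replicate 1 and 85.3% in replicate 2), from 1.6 to 1.7 Mb (79.8% and 78.4%) and from 4.8 to 4.9 Mb (77.5% and 75.6%). The 3 least covered were from 18.3 to 18.4 Mb (2.76% and 1.74%), the distal 0.1 Mb (1.87% and 3.68%) and from 18.2 to 18.3 Mb (6.08% and 2.85%). In these last 3 a replicate had 1 to 3 clusters each, so their order rests on single clusters.

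Well and poorly covered windows differed in number and in width of clusters. Across the 45 windows of 500 kb the mean covered share had an r of 0.872 with the number of clusters, 0.778 with their mean width and 0.671 with their median value. The share is nearly the product of number and mean width, so the former 2 are not independent of it. In the 9 lowest windows replicate 1 had 52.9 clusters per window with a median width of 1805.5 bp, and in the 9 highest it had 89.0 with 2313 bp. Replicate 2 had 51.7 with 1858 bp and 90.6 with 2317 bp. The number of combined clusters differed much less, 83.1 against 93.0 per window. Of the combined clusters in the 9 lowest windows, both replicates covered 41.7%, and in the 9 highest 66.2%. As the windows were ranked by the coverage of the replicates, part of this difference follows from the ranking.

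**Figure D5:**
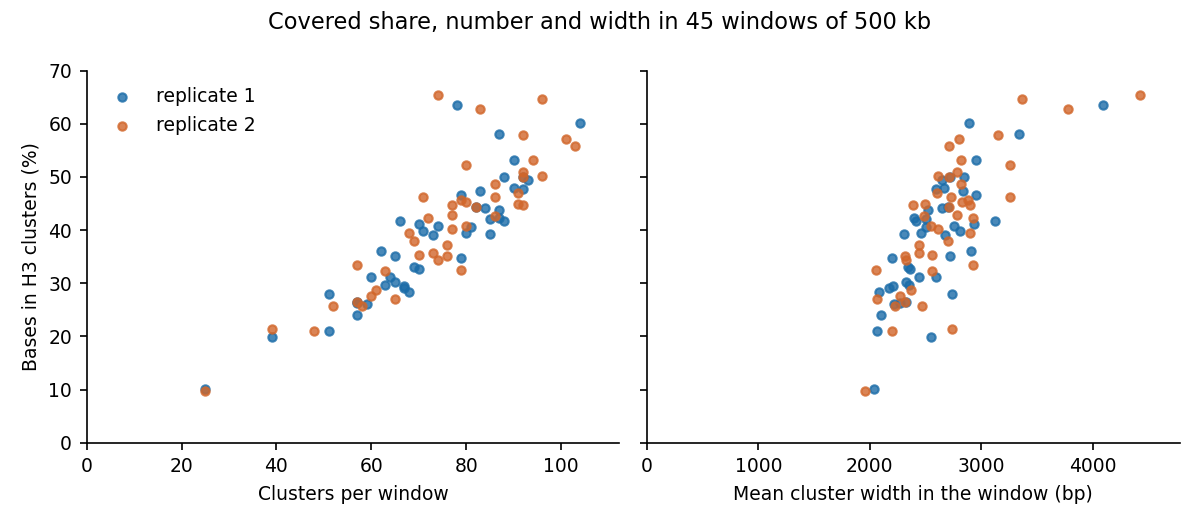
Share of bases in H3 clusters (%) against the number of clusters (left) and their mean width in bp (right) in 45 windows of 500 kb, 1 point per window and replicate. The lowest point of each replicate is the window with 25 clusters, and the highest of each is the window with mean widths of 4091 and 4427 bp.

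The longest stretch between combined clusters ran from 18244061 to 18285021, 41.0 kb inside the low region at 18 to 18.6 Mb. Neither replicate had a cluster in it. In replicate 2 it was part of its longest empty stretch, 118 kb from 18167287 to 18285050, in which replicate 1 had 3 clusters and the combined list 9. Replicate 2 had further empty stretches there from 18486653 to 18566688 (80036 bp) and from 18287902 to 18356646 (68745 bp). For replicate 1 the longest lay elsewhere, from 14259050 to 14325356 (66.3 kb), where replicate 2 had 2 clusters and the combined list 7. The longest stretches of single replicates were thus interrupted by isolated clusters of the other.

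Other long stretches without a combined cluster ran from 14182589 to 14222941 (40.4 kb), from 7983673 to 8020119 (36.4 kb), from 6391771 to 6425041 (33.3 kb) and from 7660925 to 7689525 (28.6 kb). Replicate 2 had no base of a cluster in any of these 4, and clusters of replicate 1 reached into 2 of them, over at most 0.0297% of the bases. The distal end was emptier still in the combined list, which began at base 54162, against 67606 in replicate 1 and 65872 in replicate 2. These 54.2 kb before the earliest cluster exceed every stretch between 2 combined clusters. In replicate 2, however, the inner stretches of 118 kb, 80036 bp and 68745 bp were longer than the one before its first cluster. Whether reads could be placed in these stretches was not tested, so a stretch without clusters need not be one without H3.

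Set beside the other large arms, each without the 2 Mb nearest its centromere, the covered share of 3L was in the middle. It was 38.2% and 41.2% in the replicates, against 47.1% and 51.8% on 2R, 44.4% and 48.4% on 3R, 35.5% and 41.1% on the X, and 35.6% and 38.4% on 2L. Within a replicate both arms come from the same library, so the arms were subtracted replicate by replicate. The share of 3L minus that of 2R was -8.95 percentage points in replicate 1 and -10.6 in replicate 2, and minus that of 3R it was -6.22 and -7.24. Minus that of 2L it was 2.61 and 2.82, so 3L lay below 2R and 3R and above 2L in both replicates by more than the spread of these differences. Against the X it was 2.68 points higher in replicate 1 but 0.111 points higher in replicate 2, so that difference was no larger than its spread between replicates. Its median value of 0.52 ± 0.0093 was close to 0.52 ± 0.0034 on 2L and 0.53 ± 0.0032 on 3R, and below 0.61 ± 0.0060 on the X (SD, n = 2 for each). Its widest replicate clusters, 19.4 and 18.0 kb, were narrower than the widest of each of the other 4 arms, the nearest being 23.0 and 22.1 kb on 2L. The combined list did not keep this order. Its widest cluster had 37.9 kb on 3L, against 25.2 kb on 2L, 33.0 kb on 3R, 39.6 kb on the X and 39.7 kb on 2R. Each such maximum rests on a single cluster per arm and list. These differences were not tested: over 2 replicates an exact two-sided sign-flip permutation test cannot give a p below 0.5.

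The spread over 500 kb windows on 3L had an SD of 11.6 percentage points, between 9.82 on 3R and 12.0 on 2L. Its lowest window had 9.99%, against 14.4% on 2L, 16.1% on the X, 23.2% on 2R and 29.1% on 3R. A single window of 3L was under 20%, whereas 2L had 4 such windows and the X 2. The order of the lowest windows depended on their placement. With starts moved by 250 kb the lowest had 14.5% on 3L and 15.2% on 2L, and at 1 Mb it had 18.1% on 3L and 15.4% on 2L; these windows on 2L were added after the data had been seen. The low end of the range on 3L rests on the stretch around 18 to 18.5 Mb.

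At the proximal limit, the last member of the combined list ran from 22541606 to 22545336 with a log2 value of 0.43, and the next region outside began at 22545516 with 0.64. The lowest value inside the rule was 0.00070, at 10224876, and the depleted region nearest to 0 had -0.0029, at 8300622.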

How the data were processed

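The authors deposited 3 lists of regions, 1 for each H3 ChIP replicate and 1 for the replicate set, placed on FlyBase r5 per the file headers. Bowtie 0.12.7, a read aligner, is named in the submitters' processing notes. The caller, its thresholds, the scaling to input and the handling of repeats are unstated in the sources used here. Each deposited value was taken as log2 of ChIP over input, since no header names the unit: the 40 highest values of each whole list, all arms included, hold 11, 32 and 29 distinct values (combined list, replicate 1, replicate 2), and 55 of 55, 449 of 496 and 343 of 406 pairs of these stood in whole-number ratios (denominator up to 100, tolerance 1e-08) when read as log2, against 0 when read as natural log and 1, 8 and 3 in log10. Whether it is a mean or a maximum is unknown.

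Coverage, width, spacing and overlap were computed per base in Python 3.11.15 with numpy 2.4.6 and pandas 2.3.3, and tested on simulated lists. Clusters were shared from 50% of their length. Wilson intervals (statsmodels 0.14.6) cover counting error only and treat clusters as independent. Read counts were not used here, so depth is unknown. With 1 ChIP group of 2 replicates and no input list used here, no test was made. Alternatives changed the value, width and overlap limits, the window size, the stretch left out and the replicates kept. Regions named are the 10 widest and 10 highest combined clusters, the longest combined stretches and runs, the extreme windows of 500 and 100 kb and the regions at the limits of the rule; stretches of single replicates, groups of 100 kb windows and regions of the depleted kind were added after their values were seen. The members and the rules were chosen with earlier results of these data known.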

Additional observations from a re-analysis of the deposited data

Results flagged for a closer look

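The combined list marked 58 regions of the stretch as depleted, a signal outside the clusters described above, while replicate 1 had 1 and replicate 2 had 0. Their median width was 1517 bp and their values ran from -0.16 to -0.0029, with a median of -0.040. Enriched clusters of at least 1 replicate reached into 34 of the 58. The lowest, from 7125746 to 7127150, shared 1318 bp with the 1 depleted region of replicate 1 (log2 value -0.036). No cluster of any list overlapped it, and the nearest replicate clusters lay 3987 and 3346 bp away in replicate 1 and 4036 and 3176 bp away in replicate 2. It lay in a well covered window, from 7.1 to 7.2 Mb, with a covered share of 60.3 ± 3.41% (SD, n = 2).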

How the results depend on the processing

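Of 64 recomputed values for 3L, 34 moved by less than the spread between replicates (a number of clusters by less than 1.5 times, the share of combined clusters by less than its Wilson interval) and 30 by more. The 34 include 10 means of both replicates recomputed with 1 left out, which cannot move by more than the SD and so show nothing about stability. Leaving out 1 or 4 Mb at the centromere, in place of 2 Mb, moved none of the 6 summary values. Keeping only clusters with values from the median upwards left 1675.5 clusters per replicate and 25.8% covered, with medians of 2879 bp and 0.63, 74.7% of replicate clusters shared and 48.2% of combined clusters supported by both. The lowest 500 kb window had 4.70%, the highest 56.6%, the longest stretch 98461 bp and the median spacing 3223 bp. Clusters of at least 2000 bp numbered 1772, covered 28.5% and had medians of 3042.5 bp and 0.61, with 55.0% of combined clusters covered by both. These changes follow from dropping clusters. Joining clusters closer than 500 bp brought the median width to 2269.75 bp and the median spacing to 2029 bp. With an overlap of 80%, 75.2% of replicate clusters were shared and 35.0% of combined clusters covered by both, and with 1 bp the latter was 61.4%. The lowest window had 6.68% at 250 kb, 18.1% at 1 Mb and 14.5% with starts moved by 250 kb, each time between 18 and 19 Mb. The highest had 71.0% at 250 kb, from 22.25 Mb, and 62.4% at 1 Mb. With 1 replicate left out, the share of combined clusters covered ranged from 64.6 to 69.8%, as only 1 then has to cover. The longest stretch was 66307 to 117764 bp and the median spacing 1929.5 to 2093 bp in the replicate lists. The share of replicate clusters shared has no value with 1 replicate. No paired analysis was possible because the groups that share replicate numbers, ChIP and input, have no separate values in the lists used; differences between arms are given replicate by replicate. Unknown depth limits all counts of clusters and all comparisons between lists.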
